A study of Mus musculus with 3 samples.

Results

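The genes described here encode 10 proteins that liver and yolk sac release into plasma: the carriers Ttr, Rbp4 and Trf, the albumin family members Afp and Alb, the apolipoproteins Apoa1, Apoa2, Apob and Apoe, and the fetuin Ahsg. They were chosen by name, with earlier results of these data known. Oligos with exactly 1 gene symbol in the platform's table were used. Of these genes 10 of 10 were measured, with 0 missing, among 19635 genes tested. Trf was carried by 4 oligos, which were averaged, and each of the other 9 genes by 1. The data were 3 2-colour arrays, each hybridised with kidney RNA of mouse embryos at 13.5 dpc (days post coitum) in channel 1 and of 10.5 dpc metanephric mesenchyme, the tissue from which nephrons form, in channel 2. Both tissues were microdissected whole from CD1 embryos, both sexes were pooled, and the RNA was amplified, so a value averages over every cell type in the dissection. No genotype or treatment was applied, and every array set the same pair of tissues against each other. Each array gave 1 deposited log2 ratio per oligo.

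In the embryo the visceral endoderm of the yolk sac makes and secretes plasma proteins before the liver does, and the hepatoblasts of the liver take this role over as it grows. Transthyretin carries thyroid hormone and, bound to retinol-binding protein, vitamin A. Apolipoproteins package lipid for export to the embryo, transferrin carries iron, and alpha-fetoprotein is the main albumin-like protein of fetal plasma. The same genes serve as markers of both tissues, although some, Apoe and Trf among them, are also transcribed in other cells.

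The sources used here do not say which tissue was the numerator of the ratio, so genes are placed on the negative or positive side of the deposited ratio, and neither side is read as higher in kidney or in mesenchyme. A value of 1 on the log2 scale is a ratio of 2 in size. Arrays 1 and 2 correlated at r = 0.46 over 21094 oligos, while array 3 correlated with them at 0.16 and 0.16, so array 3 stood apart and the members' means are also given without it. Over all genes the SD of the ratios was 0.73, 0.63 and 0.73 on arrays 1, 2 and 3. Spot intensities were not used here, and a ratio does not show whether a transcript was abundant in either tissue, so the labelled tissues could not be checked by the level of their markers. In whole tissue, fewer cells of a type and less RNA per cell cannot be told apart. The number of arrays limits the precision, and the labels do not state whether separate pools of tissue were used, so the p-values cover the variation among the arrays alone, and it may be technical.

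The 10 genes did not lie together. Ttr, Afp, Apoa1, Trf and Rbp4 were negative on all 3 arrays, with means from -2.24 to -0.96, and Alb was positive on all 3, at 0.87. The other 4, Ahsg, Apoe, Apoa2 and Apob, had arrays on both sides of 0 and means from -0.13 to 0.24. The same sign on all 3 arrays was thus found for 6 of 10, against 41.3% of all genes tested. Negative on all 3 arrays were 5 of 10, against 19.9% of all genes, and positive on all 3 were 1 of 10, against 21.5%. A mean of -1 or lower was found for 3 of the 10, Ttr, Afp and Apoa1, against 2.98% of all genes, and a mean of 1 or higher for 0, against 2.35%. The median of the 10 means was -0.54, and the median of all genes was 0.0020. Because the list was chosen with earlier results of these data known, these shares describe it and do not test it.

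None of the 10 passed the test over all genes (limma with Benjamini-Hochberg adjustment, threshold 0.05). That test called 1 gene of 19635, or 0.00509%, and it was not a member. The call was lost when genes at the lowest ratio were left out, and the next smallest limma adjusted p was 0.107. By limma's unadjusted p under 0.05, 5 of the 10 were on the negative side, against 7.83% of all genes, and 1 on the positive side, against 8.99%. These were the same 6 genes that kept 1 sign on all 3 arrays. The p and the sign count rest on the same 3 values of a gene, so neither adds support to the other. The shares at this unadjusted p describe the same chosen list and do not test it either. The call on the positive side, Alb, was lost without array 1 (limma unadjusted p = 0.102) and without array 3 (0.0987), and that of Rbp4 likewise (0.105 and 0.116).

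**Figure D1:**
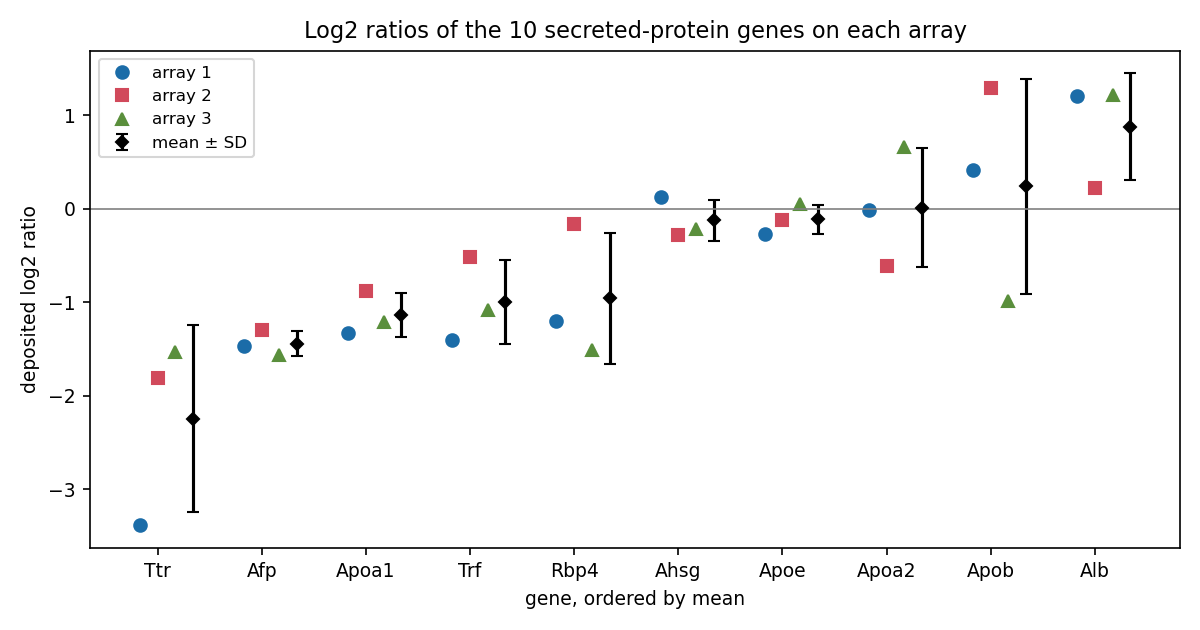
Deposited log2 ratio (vertical axis) of each of the 10 genes on arrays 1, 2 and 3 (coloured points) with the mean ± SD over the 3 arrays (black), genes ordered by mean. Ttr, Afp, Apoa1, Trf and Rbp4 lie below 0 on every array, Alb lies above 0 on every array, and Apob spans 2.28 log2 units.

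Among the carriers of small ligands, Ttr (Entrez gene 22139), the transthyretin gene, had log2 ratios of -3.38, -1.81 and -1.54 on arrays 1, 2 and 3. All 3 values were far below 0, with array 1 well apart from the other 2. The mean was -2.24 ± 1.00 (SD, n = 3 arrays), a 4.73-fold difference, with a 95% interval from the moderated fit of -3.35 to -1.14 (limma adjusted p = 0.133). Its mean ranked 33rd from the low end among 19635 genes. Array 1 carried much of that distance: without it the mean was -1.67, and without array 3 it was -2.60. Its SD was larger than that of 91.4% of genes.

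Rbp4 (Entrez gene 19662), which encodes the plasma retinol-binding protein that circulates bound to transthyretin, had -1.20, -0.17 and -1.51. Arrays 1 and 3 were close to each other and array 2 was near 0. The mean was -0.96 ± 0.70, a 1.94-fold difference (95% interval -1.78 to -0.13, limma adjusted p = 0.252). Without array 2 the mean was -1.36, and without array 3 it was -0.69.

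The albumin family gave opposite signs for neighbouring genes. Afp (Entrez gene 11576), alpha-fetoprotein, had -1.47, -1.30 and -1.56 on arrays 1, 2 and 3. These were the most even values of the 10, with an SD below that of all but 14.0% of genes. The mean was -1.44 ± 0.13, a 2.72-fold difference (95% interval -1.85 to -1.04, limma adjusted p = 0.107), and it was -1.39 without array 3. On each array Afp lay within the lowest 2.91% of genes.

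Alb (Entrez gene 11657), which encodes serum albumin, had 1.20, 0.22 and 1.21. All 3 values were above 0, with arrays 1 and 3 nearly equal and array 2 closer to 0. The mean was 0.87 ± 0.57, a 1.83-fold difference on the positive side (95% interval 0.17 to 1.58, limma adjusted p = 0.233), and it was 0.71 without array 3. Afp minus Alb was -2.67, -1.52 and -2.77 on arrays 1, 2 and 3. The mean difference was -2.32 ± 0.70, or 4.99-fold, below 0 on 3 of 3 arrays, and an exact sign-flip test over 3 arrays, two-sided, gave p = 0.25, the smallest it can give. This was the largest of 3 differences between related members that were computed. Each gave the same smallest p of 0.25 in that sign-flip test, and no adjustment over the 3 was made.

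Afp and Alb lie next to each other on chromosome 5 in the RefSeq annotation (GRCm38.p6). Their start regions are shown because these 2 related neighbours stood on opposite sides. Each is RefSeq sequence from 250 bases before to 50 after the annotated start, 5′ to 3′ on the plus strand, at chr5:90490464-90490763 for Afp and chr5:90460620-90460919 for Alb. Capitals mark GTTAAT, the half-site of the hepatic factor HNF1.
Afp: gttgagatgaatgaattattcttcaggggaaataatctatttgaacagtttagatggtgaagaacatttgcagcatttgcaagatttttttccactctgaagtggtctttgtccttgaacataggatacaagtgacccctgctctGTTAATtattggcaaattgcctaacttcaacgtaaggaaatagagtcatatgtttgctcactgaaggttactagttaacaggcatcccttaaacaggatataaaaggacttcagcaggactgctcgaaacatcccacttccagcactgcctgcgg
Alb: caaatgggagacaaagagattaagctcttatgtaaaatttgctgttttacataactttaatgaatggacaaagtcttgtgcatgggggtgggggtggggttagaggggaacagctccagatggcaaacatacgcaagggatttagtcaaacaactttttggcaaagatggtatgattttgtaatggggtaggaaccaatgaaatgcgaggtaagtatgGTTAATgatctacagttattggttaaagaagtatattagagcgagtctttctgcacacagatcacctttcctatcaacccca
Both windows held 1 GTTAAT on the same strand as the gene, starting 105 bases before the annotated start in Afp and 32 bases before it in Alb. Of all 32851 such windows 7.10% held GTTAAT on either strand, and among the 12 windows of 8 members it was found in 3, the third being 1 of the Apoe windows. The whole palindrome GTTAATNATTAAC, which contains that half-site, was in 0 of the 12 and in 0.009% of all windows. The CCAAT box was in both Afp and Alb (37.4% of all windows) and overlaps none of the GTTAAT matches. TATAAA (13.6%) and the string TTGCAA (6.23%) were in Afp and not in Alb. The nuclear receptor half-site AGGTCA (16.3%) and the forkhead core TGTTTAC (3.65%) were in neither. All 7 motifs were searched on both strands without mismatches, so a variant site would be missed. A match, or the lack of one, describes the letters of the window and says nothing about binding in these tissues.

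Afm, the afamin gene, follows Afp on the chromosome. It had 1.49, -0.37 and -2.88, so its arrays disagreed in sign and no side could be given (mean -0.59 ± 2.19, limma adjusted p = 0.771). The vitamin D-binding protein of the same family was not analysed here.

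**Figure D2:**
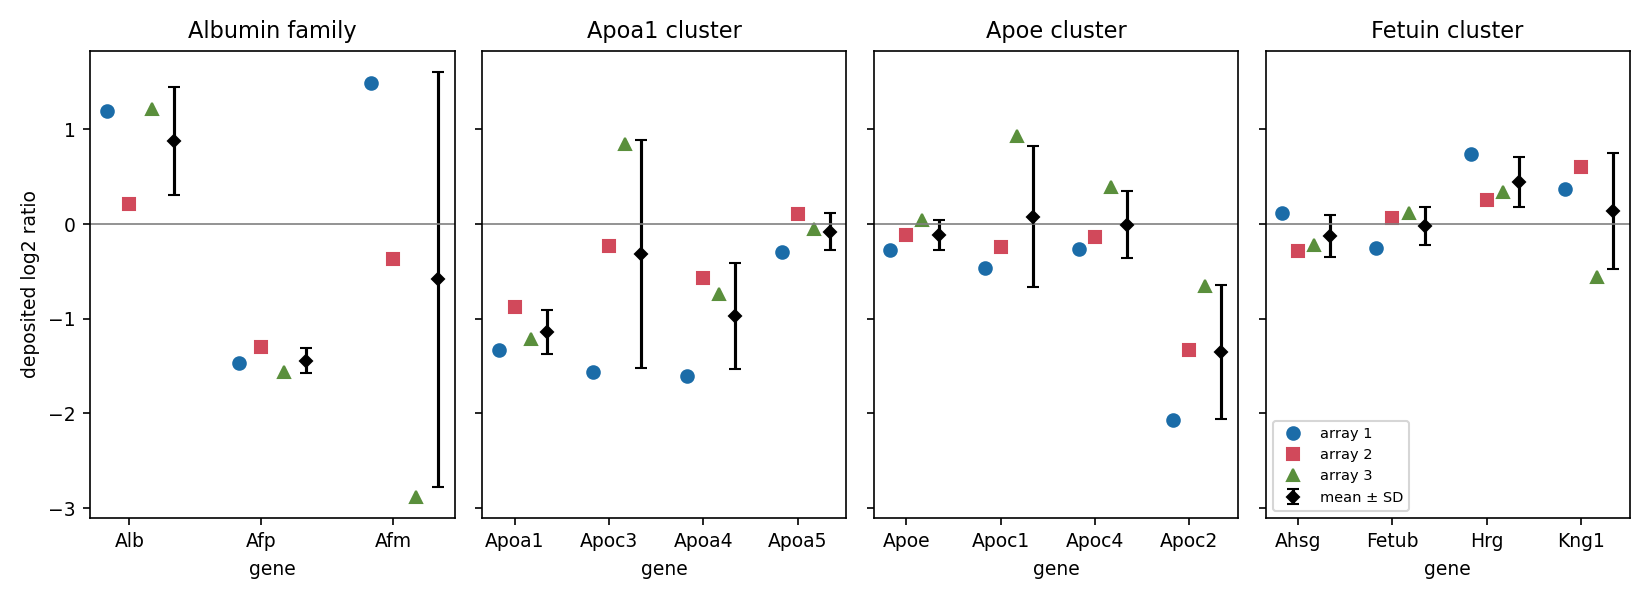
Deposited log2 ratios (vertical axis) on each array for the genes of 4 families or chromosomal clusters that contain members, with mean ± SD over 3 arrays in black. Alb lies above 0 and Afp below 0 on every array, Apoa1 and Apoa4 lie below 0 on every array, and in the Apoe cluster only Apoc2 does.

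Of the 4 apolipoproteins only Apoa1 was negative on every array. Apoa1 (Entrez gene 11806), the main protein of high-density lipoprotein, had -1.33, -0.88 and -1.21. The arrays lay close together, all clearly negative. The mean was -1.14 ± 0.23, a 2.20-fold difference (95% interval -1.59 to -0.69, limma adjusted p = 0.110), and -1.10 without array 3.

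Apoa2 (Entrez gene 11807), the second protein of high-density lipoprotein, had -0.010, -0.61 and 0.66. Its arrays fell on both sides, and the mean of 0.010 ± 0.64 had a 95% interval of -0.75 to 0.77 (limma adjusted p = 0.990), so its side was not determined. Without array 3 the mean was -0.31 and without array 2 it was 0.32. Apoa1 minus Apoa2 was -1.32, -0.26 and -1.87, a mean of -1.15 ± 0.82 that was below 0 on 3 of 3 arrays (exact sign-flip test, two-sided, p = 0.25, the smallest 3 arrays allow).

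Apob (Entrez gene 238055), the structural protein of low-density and very-low-density lipoproteins, had 0.41, 1.29 and -0.99. These were the most scattered values of the 10, with an SD larger than that of 94.2% of genes. Array 2 placed Apob above 98.4% of genes and array 3 placed it above 6.46%. The mean of 0.24 ± 1.15 had a 95% interval of -1.02 to 1.497 (limma adjusted p = 0.833). It was 0.85 without array 3 and -0.29 without array 2.

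Apoe (Entrez gene 11816), the ligand by which lipoprotein remnants are taken up, which macrophages also make, had -0.27, -0.12 and 0.044. The values were even and near 0. Its mean of -0.12 ± 0.16 had a 95% interval of -0.53 to 0.30 (limma adjusted p = 0.748), the lower end of which lies above the mean of Apoa1. It was -0.037 without array 1 and -0.19 without array 3. Apoa1 minus Apoe was -1.05, -0.76 and -1.26, a mean of -1.02 ± 0.25 that was below 0 on 3 of 3 arrays (exact sign-flip test, two-sided, p = 0.25, the smallest 3 arrays allow).

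The neighbours of these genes on the chromosome did not all share their side. Of the Apoa1 cluster, Apoa4, a lipoprotein component made in intestine, yolk sac and liver, had -1.61, -0.56 and -0.74 (mean -0.97 ± 0.56, limma adjusted p = 0.205). Apoc3, an inhibitor of lipoprotein lipase, had -1.56, -0.23 and 0.84, and Apoa5, which promotes triglyceride breakdown, had -0.29, 0.10 and -0.056. All 4 genes of that cluster had a negative mean, or 2 without array 1, and only Apoa1 and Apoa4 were negative on every array. Of the Apoe cluster, Apoc2, the activator of lipoprotein lipase, had -2.06, -1.33 and -0.66 (mean -1.35 ± 0.70, a limma adjusted p of 0.171). Apoc1 and Apoc4, beside it, had means of 0.076 ± 0.74 and -0.0048 ± 0.35 with arrays on both sides.

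Trf (Entrez gene 22041), transferrin, was the one gene with more than 1 oligo. Averaged over its 4 oligos it had -1.40, -0.51 and -1.08 on arrays 1, 2 and 3, all negative with array 2 nearest 0. The mean was -0.996 ± 0.448, a 2.00-fold difference (95% interval -1.60 to -0.39, limma adjusted p = 0.170), and -0.96 without array 3.

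The 4 oligos did not give 1 value. Oligo 1 had -0.60, 0.17 and -0.29, and oligo 2 had -0.71, -0.34 and -1.79. Oligo 3 had -0.95, -0.85 and -1.85. Oligo 4 had -3.34, -1.03 and -0.38. The first lay nearest 0 and crossed it on array 2, while the last was the lowest on arrays 1 and 2 and the second highest on array 3. Oligo means ranged from -0.24 to -1.58, with an SD of 0.57 between them, against an SD of 0.45 over arrays for the averaged gene. All 4 oligo means were negative. With each oligo tested alone, limma's adjusted p ran from 0.157 to 0.618. Oligo sequences were not used here, so which transcript region each one reads is not given.

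**Figure D3:**
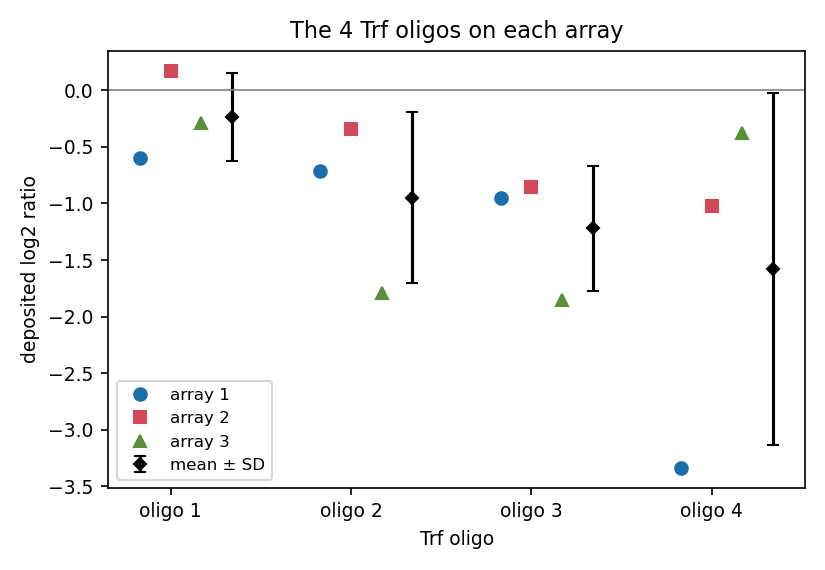
Deposited log2 ratio (vertical axis) of the 4 Trf oligos on arrays 1, 2 and 3, with mean ± SD over the arrays in black. The oligo means run from -0.24 for oligo 1 to -1.58 for oligo 4, and oligo 4 spreads most, from -3.34 on array 1 to -0.38 on array 3.

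Ahsg (Entrez gene 11625), fetuin-A, an inhibitor of calcification abundant in fetal plasma, had 0.12, -0.28 and -0.22. The values were small and on both sides. The mean of -0.13 ± 0.22 had a 95% interval of -0.57 to 0.32 (limma adjusted p = 0.741). It was -0.25 without array 1, -0.049 without array 2 and -0.081 without array 3. In its cluster Fetub, the second fetuin, stood at -0.020 ± 0.20, and Kng1, kininogen, at 0.14 ± 0.61. Hrg, histidine-rich glycoprotein, had 0.74, 0.25 and 0.34, higher than Ahsg on each array, and was the only gene of the 4 with 1 sign on all 3 arrays.

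In order of their means from the low end the members were Ttr, Afp, Apoa1, Trf, Rbp4, Ahsg, Apoe, Apoa2, Apob and Alb. Of the 9 steps between neighbours in that order only 2 exceeded the SD of the difference over arrays. One was the step of 0.30 ± 0.14 from Afp to Apoa1, seen on 3 of 3 arrays, and the other was that of 0.83 ± 0.82 from Rbp4 to Ahsg, seen on 2 of 3. The values of each pair of neighbours overlapped over arrays. Within the 5 lowest genes, then, most of the order was not resolved.

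**Figure D4:**
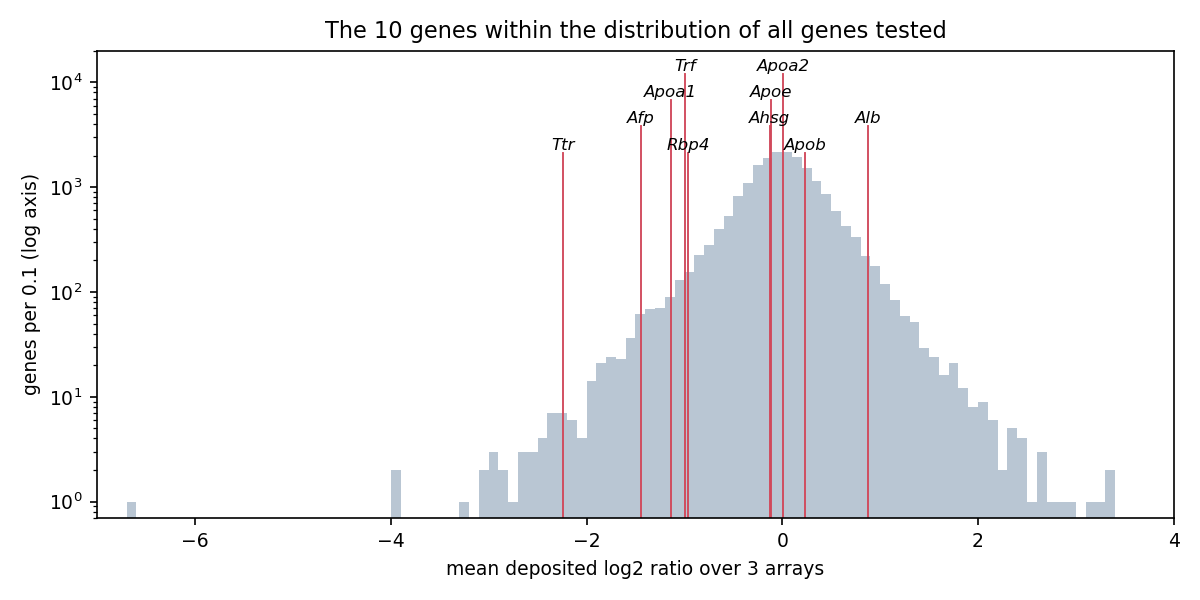
Histogram of the mean deposited log2 ratio of 19635 genes (vertical axis logarithmic, genes per 0.1 log2) with the 10 members marked by red lines. Ttr, Afp, Apoa1, Trf and Rbp4 lie in the lower tail, Alb in the upper tail, and the other 4 lie near the centre.

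Arrays differed in how far they placed the members from 0. Array 2 gave the value nearest 0 for 5 of the 6 genes with 1 sign throughout, the exception being Ttr, and array 2 also had the smallest spread over all genes. With arrays scaled to a common median absolute deviation it did so for 4 of the 6. Over the 10 members, as a description with no test, array 1 correlated at r = 0.79 with array 2 and 0.77 with array 3, and arrays 2 and 3 at 0.36. Of the 10 SDs, 6 were above the all-gene median of 0.32.

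Other plasma proteins of liver and yolk sac were spread around a median of -0.15. Of 54 measured, 39 had a negative mean, or 72.2%, against 49.7% of all genes. Unadjusted, limma gave a p under 0.05 to 7 on the negative side (4 without array 1) and to 0 on the positive side, against 7.83% and 8.99% of all genes, and 0 passed with adjustment. The 7 are 13.0% of the list. Of these 7, 4 were copies of Serpina1, which encode alpha-1-antitrypsin, the main protease inhibitor of plasma, and the others were Apoc2, Apoa4 and Serpinc1, antithrombin, at -0.70 ± 0.53. The 5 Serpina1 copies had means from -1.88 to -0.59. Serpina1e had -1.89, -0.96 and -2.80, and Serpina1c had -1.31, -0.74 and -1.14. These copies are near-identical in sequence and their oligos may share signal, so they are not 5 separate measurements. Without the 5 copies, 3 of 49 genes had a limma unadjusted p under 0.05 on the negative side, against 7.83% of all genes. On the positive side on every array, Pzp, an alpha-2-macroglobulin-type inhibitor, stood at 0.61 ± 0.59 and Hpx, the haem carrier hemopexin, at 0.35 ± 0.26.

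Receptors and uptake partners of the carried proteins lay on both sides. Of 12 measured, 4 had a negative mean (2 without array 3) and 8 a positive one, and the median was 0.14, or 0.027 without array 2 and 0.36 without array 3. Limma's unadjusted p was under 0.05 for 1 on the negative side, or 8.33% against 7.83% of all genes. On the positive side there were 2, or 16.7% against 8.99%, but 0 without array 1, 1 without array 2 and 3 without array 3, and 0 of the list passed with adjustment. Cubn, cubilin, an endocytic receptor for Apoa1, Alb and Trf, had -2.04, -1.23 and -1.21. Dab2, the adaptor for endocytic receptors, stood at 0.65 ± 0.33 and Vldlr, a receptor for Apoe-bearing lipoproteins, at 0.58 ± 0.15. Lrp2, megalin, the partner of cubilin, stood at 0.37 ± 0.080, and Lrpap1, the chaperone of that receptor family, at -0.93 ± 0.82. Genes of lipoprotein assembly and modification lay near 0, with a median of -0.044 over 8 measured, which turned to 0.028 without array 2, where limma's unadjusted p was under 0.05 for 0 and the adjusted p for 0. Lcat, which esterifies cholesterol on high-density lipoprotein, stood at -0.13 ± 0.088.

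Of the transcription factors of hepatocytes and of these genes, 21 were measured. A negative mean was found for 15, or 71.4%, against 49.7% of all genes, and for 12 without array 3. The median was -0.067, or -0.15 without array 2 and -0.062 without array 3. Limma's unadjusted p was under 0.05 for 1 on each side, or 4.76%, below the 7.83% and 8.99% of all genes, and 0 passed with adjustment. Zbtb20, a repressor of Afp in mouse liver, had 1.52, 0.76 and 0.71 (mean 1.00 ± 0.46, limma adjusted p = 0.171). Nr2f1, an orphan nuclear receptor, stood at -0.57 ± 0.19. Hhex, a homeobox gene of the liver bud, and Nr1h3, the sterol-sensing liver X receptor, were negative on all 3 arrays with wide scatter, at -1.29 ± 1.32 and -1.61 ± 1.77. Prox1, a homeobox gene of hepatoblasts, stood at 0.26 ± 0.22, and Cebpa, a hepatocyte factor, at 0.22 ± 0.11.

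Genes listed as markers of the cells that could bring these transcripts did not share 1 side. Several of them, Dpp4 and the keratins included, are also made by other epithelia. Their sides therefore need not come from liver or yolk sac cells, and which cells made them was not tested. Of 21 hepatoblast and hepatocyte genes that are not secreted, 7 had a negative mean, and the list mean per array ran from -0.16 to 0.12 (median of the genes 0.15, or 0.069 without array 3). With limma's unadjusted p under 0.05 there were 3 on the negative side, or 14.3% against 7.83% of all genes: Fabp1, the liver fatty acid-binding protein, with -3.76, -3.27 and -1.60, Dlk1, a transmembrane protein of hepatoblasts and other embryonic cells, at -1.09 ± 0.22 and Krt19, a keratin of many simple epithelia, at -1.03 ± 0.21. Pck1, a gluconeogenic enzyme, was the 1 on the positive side, or 4.76% against 8.99%, at 0.66 ± 0.50. Krt18, another keratin, was positive on every array, with 0.51, 0.38 and 2.35 (limma unadjusted p = 0.0692). Its mean of 1.08 ± 1.10 was the highest of the list. Of 17 yolk sac visceral endoderm markers, 9 had a negative mean, or 4 without array 3, the list mean per array ran from -0.045 to 0.16, and the widest values were those of Cubn and of Dpp4, a peptidase at 2.72 ± 0.94 that other epithelia carry too. By the same unadjusted p that list had 1 gene on the negative side, or 5.88%, and 2 on the positive side, or 11.8%. Cubn, on the negative side, and Dab2, on the positive side, are also counted among the receptors above. With adjustment 0 of either list passed.

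Red-cell markers were mostly negative but uneven. Of 23 measured, 18 had a negative mean, and the list mean per array ran from -0.84 to -0.52, while the median of the genes was -0.28. Limma's unadjusted p was under 0.05 for 8 on the negative side, or 34.8% against 7.83% of all genes, and for 0 on the positive side, and 0 passed with adjustment. Negative on all 3 arrays were 13 of the 23, against 19.9% of all genes, and positive on all 3 was 1, against 21.5%. The embryonic globin Hbb-bh1 had -3.88, -3.66 and -4.30. The erythroid factor Klf1 stood at -3.02 ± 0.29 and Ermap, another red-cell marker, at -2.61 ± 0.27. The other globins measured lay near 0, with Hba-x at -0.21 ± 0.15, Hbb-y at -0.062 ± 0.26 and Hba-a1 at -0.084 ± 0.13. Slc4a1, the band 3 anion exchanger of the red-cell membrane, was positive on all 3 arrays at 0.42 ± 0.41, and Ank1, its ankyrin anchor, had -0.28, 1.12 and 2.24.

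Of 14 gut markers 9 had a negative mean, or 6 without array 1, and the median of -0.044 turned to 0.031 without that array. The list mean per array ran from -0.51 to -0.15. The lowest values were those of Nkx2-3, a homeobox gene of gut mesenchyme, at -2.39 ± 0.043 and of Cdx2, a homeobox gene of hindgut, at -1.05 ± 0.74. Vil1, villin of the brush border, at 0.21 ± 0.090 and Shh, a signal of gut endoderm, at 0.15 ± 0.22 were positive on all 3 arrays. Of 19 macrophage and leukocyte markers 8 had a negative mean, with a list mean per array from 0.019 to 0.15 and a median of 0.16, or 0.033 without array 3. The integrin Itgam had -0.93, -0.52 and -0.94, and Fcer1g, an Fc receptor chain, stood on the other side at 0.67 ± 0.46. The part of red cells, gut, liver or yolk sac in the ratios of the secreted proteins was not tested.

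**Figure D5:**
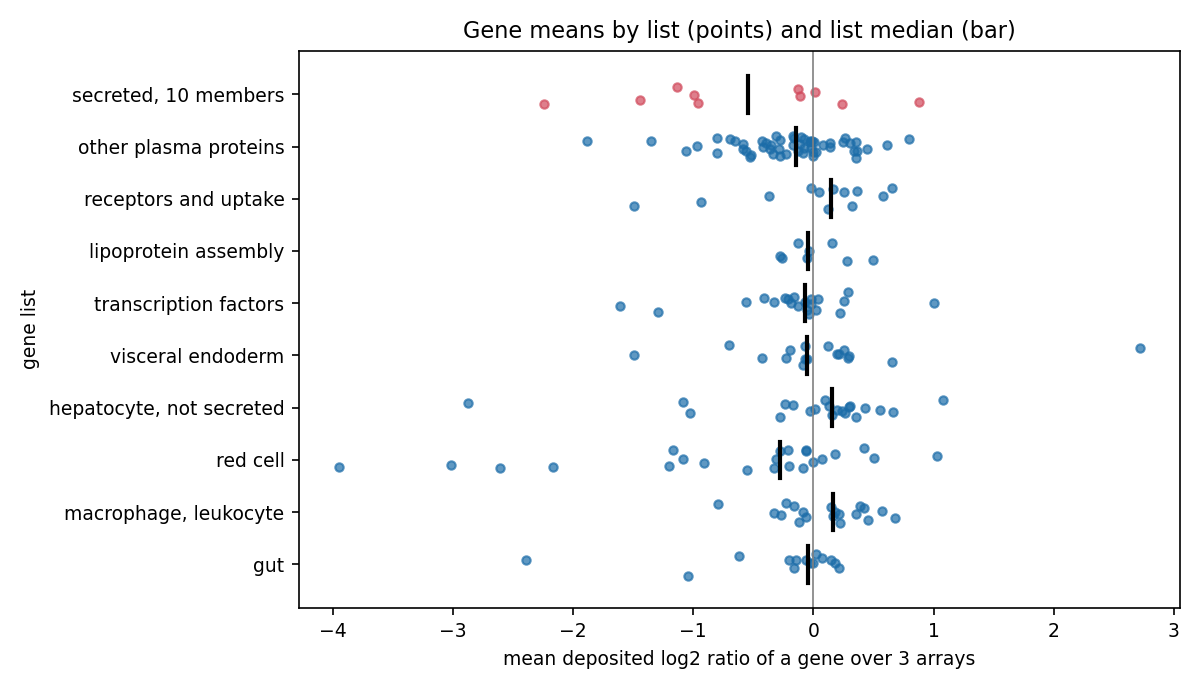
Mean deposited log2 ratio of each gene (horizontal axis, points) in 10 gene lists, with the list median as a bar. The 10 secreted-protein genes (top, red) have the lowest median, -0.54, followed by red-cell markers at -0.28 and other plasma proteins at -0.15.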

How the data were processed

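RNA of 13.5 dpc kidney and 10.5 dpc metanephric mesenchyme was compared on 3 2-colour Compugen oligo arrays, read with ImaGene 5.5, per the labels. The deposited values are log2 ratios of the channels, the base taken from the values. The authors applied print-tip loess and a normalization between arrays, per the labels, which centre the ratios near 0, and control values under 10 were set to 10. The labels mention a dye swap; dye, numerator and genome build are not given in the sources used here, so no sign was turned.

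Of 22702 spots 881 controls were left out. Oligos with a value on all 3 arrays (21094) were averaged by symbol, giving 19635 genes, of which 4889 are unnamed oligos. Limma 3.58.1 (R 4.3.3) tested the mean of each gene, two-sided, against 0, and p-values were adjusted by Benjamini-Hochberg across the whole table. The script was tested on simulated data. Promoters are from RefSeq (GRCm38.p6), which matched 8 of 10 members. Members and lists were chosen with earlier results of these data known. Besides the members, up to 3 genes per side and list with the smallest p and 1 sign on all arrays were eligible to be named, with every gene of the 4 families or clusters; Serpinc1, the Serpina1 copies, Ank1 and the globins besides Hbb-bh1 were added after their values were seen. The alternatives were the arrays required, the handling of oligos, scaling, weights, moderation, the lowest ratios and each array left out; those for lists other than the members were added after seeing the data.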

Additional observations from a re-analysis of the deposited data

How the results depend on the processing

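Ttr, Afp, Apoa1, Trf, Rbp4, Apoe and Ahsg kept a negative mean and Alb a positive one in every alternative run, and 0 members passed limma's adjusted threshold in any of them. The mean of Apoa2 turned negative with arrays centred on their medians (-4.29e-05), scaled to a common deviation (-0.044), quantile normalized (-0.036) or weighted (-0.21), and ran from -0.31 to 0.32 with 1 array left out. That of Apob ran from -0.29 to 0.85 with 1 array left out. Members at an unadjusted p under 0.05 on the negative side fell to 2 without variance moderation, Afp and Apoa1. They numbered 4 with array weights, where Rbp4 was lost (limma unadjusted p = 0.0625). With the oligo of the largest ratio standing for its symbol they also numbered 4, and Trf was lost (limma unadjusted p = 0.0588). With 1 array left out they ran from 4 to 5. The 1 on the positive side, Alb, fell to 0 without variance moderation and ran from 0 to 1 with 1 array left out. The 1 gene called over the whole table was lost with scaling (0 calls by limma, 3370 genes at an unadjusted p under 0.05), with the lowest ratios left out (0, and 3307) and with any array left out (0 each, and 1678 to 3913). The Afp minus Alb difference kept its sign in every alternative run on it. Each array set the 2 tissues directly against each other, so its ratio is already a within-array comparison. All arrays form 1 group, and no further pairing was used.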
